A study of Mus musculus with 13 samples.

Results

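The 9 genes described here are known from tendon and ligament cells and from fibrous matrix, and not all are particular to them. They were taken by symbol from a count table of 34709 genes, and all 9 passed the filter on low counts, among 17837 genes tested. Scx and Mkx encode transcription factors and Tnmd a membrane protein of tendon cells. Postn encodes a secreted matrix protein, and Aspn, Dcn, Bgn, Fmod and Lum encode small leucine-rich proteoglycans. RNA was sequenced from whole lower incisors of male mice at postnatal day 5. Wild-type controls gave 5 libraries, the VDRgem line 3 and the VDR-null line 5. The lines differ from control in Vdr, which encodes the vitamin D receptor. The VDRgem receptor is known to answer synthetic gemini analogs but not the natural hormone, and a VDR-null mouse has no functional receptor. The labels do not describe the alleles further, name no animal behind a library and no rearing diet, and call the incisors independent, so p-values measure the spread among these incisors.

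Tendons and ligaments, including the periodontal ligament that ties a tooth to bone, are built from collagen fibrils by fibroblasts. Scx, a basic helix-loop-helix factor, marks their progenitors, Mkx, a homeobox factor, acts in their maturation, and Tnmd is known as a target of Scx in tendon. Small leucine-rich proteoglycans bind collagen fibrils and set their width and spacing, and periostin, the product of Postn, is abundant in the periodontal ligament and in periosteum.

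Total counts ran from 20405188 to 87783466 per library. The odontoblast gene Dspp stood at 18430 ± 2413 CPM (library-scaled counts after TMM normalization, mean ± SD, n = 5) and the enamel gene Amelx at 20672 ± 13444 CPM in controls, so the tissue carried the defining transcripts of tooth. Vdr itself was read at 142 to 180 CPM in controls, 107 to 205 CPM in VDRgem, and from 204 up to 281 CPM in VDR-null. A count per gene cannot show an altered transcript, so these values do not check the labels. Libraries VDRgem 1 and 2 stood apart in 12 markers of oral keratinocytes. Their mean log2 CPM was 8.16 and 6.40 there, against 2.93 in VDRgem 3. Controls ranged from -0.52 to 3.06 and VDR-null from -0.86 to 1.50. The 11 skeletal muscle markers averaged 3.68, 1.14 and 0.41 in VDRgem 1 to 3, against -1.40 to 0.37 in controls. In VDR-null they ran from -2.30 to 4.57, highest in VDR-null 3, with VDR-null 4 (0.40) and 5 (1.045) also above every control. Of these markers Myod1 was under 1 CPM in every library. The 9 markers of dividing cells lay at 4.17 to 4.33 in VDRgem and 5.06 to 5.42 in controls. All 9 fell in the test of VDRgem against control (5 without VDRgem 2). Without VDRgem 1, 0 passed, with all 9 at an unadjusted p under 0.05 in edgeR, and 66 of 18137 genes passed in that fit. In whole teeth, fewer cells of a type and less RNA per cell cannot be told apart.

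Per kilobase of exon, the 9 genes formed an abundant and a scarce set. Lum was at 428 ± 22.2 CPM per kb in controls (SD, n = 5) and Bgn at 376 ± 41.8, and these overlapped. Fmod at 261 ± 25.6 and Postn at 255 ± 33.5 also overlapped each other, and Dcn followed at 126 ± 6.82 CPM per kb. Below a gap came Aspn at 15.5 ± 3.25 CPM per kb, Tnmd at 9.18 ± 1.19 and Mkx at 6.58 ± 0.526, the last pair overlapping, and then Scx at 0.699 ± 0.128. In controls Aspn was thus the proteoglycan that sat with the factors and Tnmd in the scarce set. The abundant genes lay above the scarce ones in all 3 groups, as the plot of levels per length shows. In VDRgem, however, Aspn stood between the sets, at 67.4, 43.5 and 56.6 CPM per kb. Tnmd was at 17.6, 12.6 and 14.4 there and Dcn at 160, 148 and 161, and Fmod fell to 104 in VDRgem 1. The order inside each set depends on the length used. With the mean length of coding transcripts in place of all annotated exons, an alternative added after the data were seen, the order was Bgn at 1149 CPM per kb, Postn at 866, Dcn at 583, Fmod at 473, Lum at 428, Aspn at 15.7, Mkx at 12.3, Tnmd at 9.18 and Scx at 1.36.

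**Figure D1:**
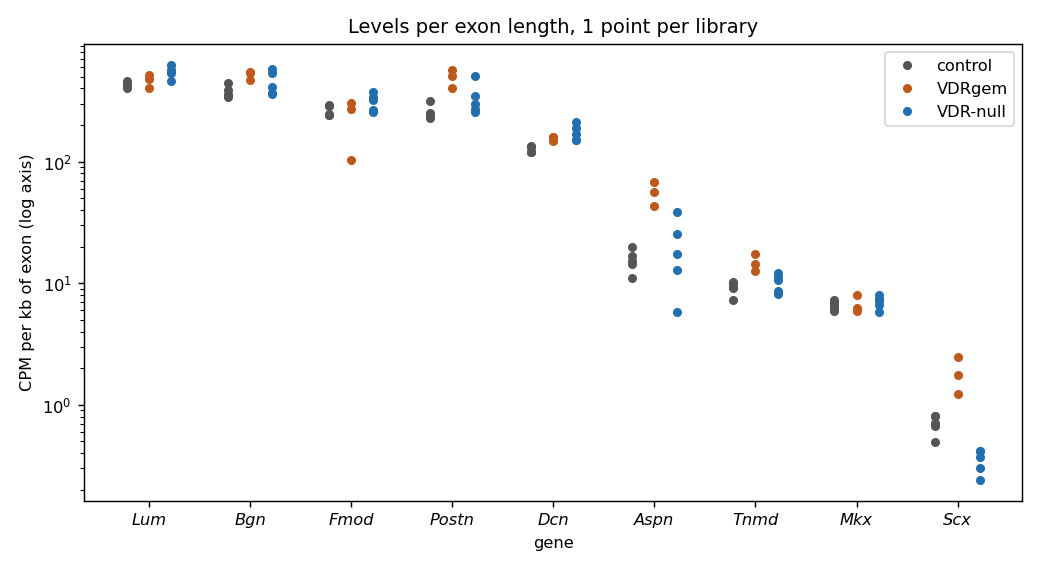
Level of each gene per kilobase of annotated exon (CPM per kb, log axis), with 1 point per library and the groups side by side. Lum, Bgn, Fmod, Postn and Dcn lie above 100 CPM per kb in every library, and Scx is the lowest gene in each group.

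The letters before the transcription start are shown for Aspn, Postn and Tnmd, which rose together in VDRgem. They come from RefSeq on GRCm38.p6, for which 5 of the 9 genes were matched. Capitals mark TATAAA and the E-box CANNTG, the core bound by basic helix-loop-helix factors such as Scx, on either strand. The windows are chr13:49544193-49544442, chr3:54360857-54361106 and chrX:133850758-133850979, all on the plus strand.
Aspn: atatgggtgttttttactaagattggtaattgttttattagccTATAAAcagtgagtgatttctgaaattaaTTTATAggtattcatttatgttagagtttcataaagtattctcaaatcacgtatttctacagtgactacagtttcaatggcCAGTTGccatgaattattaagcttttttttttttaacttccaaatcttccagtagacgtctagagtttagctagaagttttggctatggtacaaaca
Postn: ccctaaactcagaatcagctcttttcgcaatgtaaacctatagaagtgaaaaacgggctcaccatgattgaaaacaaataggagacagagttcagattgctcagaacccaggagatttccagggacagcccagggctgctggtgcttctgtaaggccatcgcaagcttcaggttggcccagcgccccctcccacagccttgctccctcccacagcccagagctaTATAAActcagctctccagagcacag
Tnmd: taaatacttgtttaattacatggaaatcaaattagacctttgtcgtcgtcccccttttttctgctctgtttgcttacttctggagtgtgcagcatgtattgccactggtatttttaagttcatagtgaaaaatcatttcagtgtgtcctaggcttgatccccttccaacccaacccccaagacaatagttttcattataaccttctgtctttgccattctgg
Positions count back from the RefSeq start. The Tnmd letters stop 28 bases short of it, where the GENCODE gene begins, so the usual place of a TATA box is not printed, though the search covered all 250 bases. The Aspn window held 1 E-box at -97 and TATAAA at -207 and -178, far from the usual distance of a TATA box. In Postn TATAAA lay at -26, where a TATA box is usual, and no E-box was found. Neither motif was found in Tnmd. Of the other matched genes, the Bgn window held 1 E-box at -102 and the Fmod window 1 at -189, which reads CATCTG, 1 of the forms of CANNTG. Among 32851 promoters of 250 bases, 66.22% held CANNTG, 14.44% CATCTG and 12.37% TATAAA, so an E-box is common. The half-sites AGGTCA and GGTTCA, held by 14.02% and 8.85% of promoters, were found in none of the 5 windows. The same holds for TGANTCA, the AP-1 motif, held by 6.75%, and for a direct repeat of these half-sites, or of GGGTCA, with a gap of 3 bases, the form known for the vitamin D receptor, held by 10 promoters (0.03%). These are matches of letters within short windows.

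**Figure D2:**
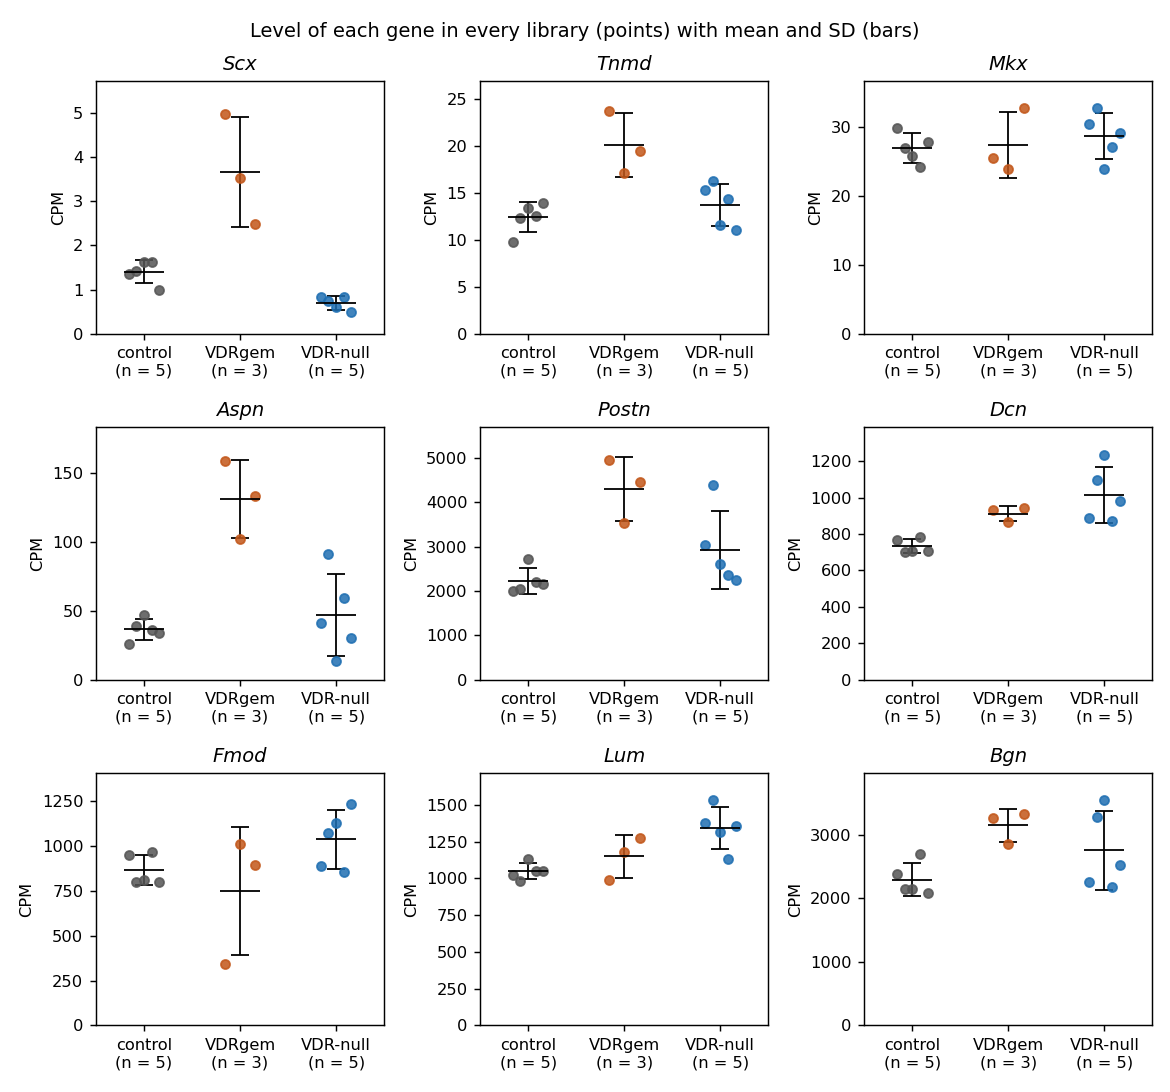
Level of the 9 genes in CPM, with 1 point per library, a long bar at the group mean and shorter bars at 1 SD, on axes that start at 0. The 3 VDRgem libraries lie above all 5 controls for Scx, Tnmd, Aspn, Postn, Dcn and Bgn, and the 5 VDR-null libraries lie below all controls for Scx.

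The comparison of VDRgem with control addresses a receptor that no longer answers its natural ligand. Scx, Tnmd, Aspn and Postn rose, Mkx stayed close to control, and the other proteoglycans split: Dcn and Bgn were higher in every VDRgem library without passing the test, and Fmod and Lum overlapped with control. Thus 4 of 9 genes were called (adjusted p under 0.05 in edgeR's quasi-likelihood test), all higher, where 8.62% of all genes tested were called and 4.80% were called higher. The 9 genes and the lists given below were chosen with earlier results of these data known. Their counts beside such shares are therefore descriptions and not a test. In 6 of 9 every VDRgem library lay above every control, against 9.01% of all genes, or 19.3% counting both directions. The median log2 fold change was 0.46 for the 9 genes and 0.00 for all genes. It was positive for 8 of 9, but with scaling by library totals alone, which put the median of all genes at -0.17, Mkx (-0.14) and Lum (-0.03) turned negative. The 4 calls ended in the fit without VDRgem 1, which called 66 of 18137 genes in this comparison.

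The comparison of VDR-null with control asks what the loss of the receptor changes. Of the 9 genes 1 was called, Dcn, which rose, against 1.33% of all genes called and 0.678% called higher. The VDR-null libraries did not overlap with control for 3 genes, Dcn and Lum on the higher side and Scx on the lower, where 7.09% of all genes did not overlap and 3.91% lay wholly higher. The median was 0.26 for the 9 genes and 0.01 for all genes. Both comparisons use the same 5 controls. The mutants were therefore also compared with each other, where Scx, Tnmd and Aspn were called, all higher in VDRgem. That is 3 of 9 genes, against a background of 18.8% called and 10.6% called higher, and the same 3 did not overlap, against 18.0% in both directions and 9.17% higher. The median between the mutants was 0.19 for the 9 genes and -0.02 for all genes.

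**Figure D3:**
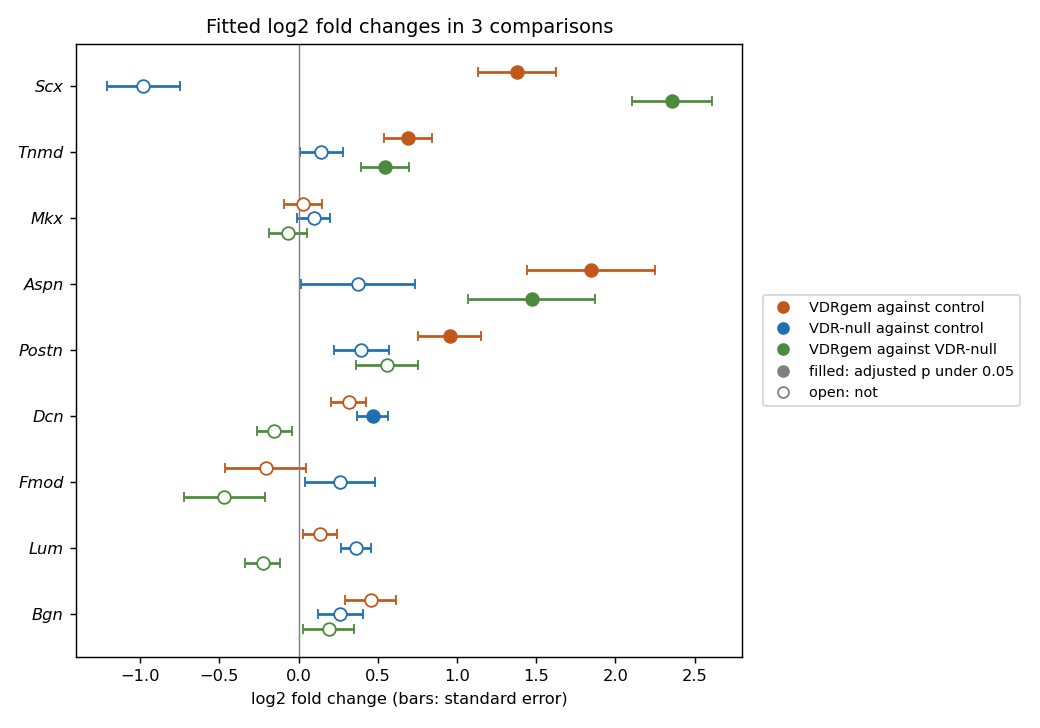
Fitted log2 fold change of each gene in the 3 comparisons, with bars of 1 standard error and filled points where the adjusted p was under 0.05. Scx lies on opposite sides of 0 in the comparisons of VDRgem and of VDR-null with control, which share the control libraries.

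Scx was the gene in which the mutants lay on opposite sides of control. It is at chr15:76457452-76459458 on the plus strand of mm10 and was read at 1.36, 1.42, 1.62, 1.62 and 1.0 CPM in controls 1 to 5. The VDRgem libraries held 4.97, 3.52 and 2.48 CPM, and the VDR-null libraries 0.83, 0.75, 0.61, 0.83 and 0.48 CPM. All VDRgem values were above and all VDR-null values below the controls, so the 3 groups did not overlap. These are low levels, resting on 30 to 107 counts per control library, 160 to 259 in VDRgem and 15 to 58 in VDR-null.

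From control to VDRgem Scx rose by 1.38 log2 units (SE 0.25, adjusted p = 0.00982). Its value in VDR-null was -0.98 (SE 0.23), a ratio of 0.507, and narrowly missed the threshold at an adjusted p of 0.0525. Between the mutants Scx was 5.13-fold higher in VDRgem, a log2 difference of 2.36 (SE 0.25, adjusted p = 0.000202). This difference was called in each of 13 fits that left out 1 library, with adjusted p from 5.03e-05 to 0.00126. The rise over control missed the threshold without VDRgem 1, at 1.08 with an adjusted p of 0.0719. The VDR-null value passed in DESeq2 (adjusted p = 0.00578) and in 4 of the 13 fits, without VDRgem 1 (0.0359), VDRgem 3 (0.0339), control 5 (0.0460) or VDR-null 4 (0.0495), over a range of 0.0339 to 0.121. It also passed with the muscle covariate (0.0267) and missed in limma-voom (0.0862).

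Within VDRgem, Scx ran in the order of the keratinocyte markers, highest in VDRgem 1 and lowest in VDRgem 3. Skeletal muscle markers (3.68, 1.14 and 0.41) and dermal and loose connective tissue fibroblast markers (5.37, 3.98 and 3.40) ran in the same order. With the keratinocyte score as a covariate Scx was 0.66 above control (adjusted p = 0.414). The covariate takes up part of the group difference too, and with it 0 of 17837 genes were called over control by edgeR, with 2431 at an unadjusted p under 0.05. Between the mutants Scx was not called with this covariate either, where 13 of 17837 genes were called. VDRgem 3, whose keratinocyte score of 2.93 lay within the control range, held 2.48 CPM of Scx, and the highest control held 1.62. The part of keratinocytes in the Scx values was not tested beyond this covariate. Scx sits inside Bop1, a ribosome biogenesis gene on the opposite strand, with 0 bases of shared exon. The strand setting of the counting is not given in the sources used here, so reads from Bop1 introns and from Scx cannot be told apart. Bop1 was at 38.4 ± 4.02, 40.4 ± 3.65 and 31.9 ± 6.20 CPM (SD) in control (n = 5), VDRgem (n = 3) and VDR-null (n = 5) and was called in none of the 3 comparisons.

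Mkx, the other factor, showed no such division. It is at chr18:6934518-7004780 on the minus strand and was read at 29.9, 27.0, 25.8, 24.2 and 27.9 CPM in controls. The VDRgem libraries held 25.5, 24.0 and 32.9 CPM and the VDR-null libraries 30.5, 32.9, 24.0, 27.1 and 29.2 CPM. The 3 groups overlapped throughout. The log2 fold change was 0.03 (SE 0.12, adjusted p = 0.922) in VDRgem and 0.09 (SE 0.10, adjusted p = 0.626) in VDR-null, and -0.07 (SE 0.12, adjusted p = 0.730) between the mutants. Its first and last values turned sign with other scaling or with a library left out, so neither has a fixed direction.

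Tnmd, at chrX:133850980-133865577 on the plus strand, followed Scx in VDRgem but not in VDR-null. Controls held 9.78, 12.4, 13.4, 12.6 and 14.0 CPM, VDRgem 23.8, 17.1 and 19.4 CPM, and VDR-null 15.3, 16.3, 11.6, 14.3 and 11.1 CPM. Every VDRgem library was above every library of the other groups, while VDR-null overlapped with control. Tnmd rose 1.62-fold over control, on the log2 scale 0.69 (SE 0.15, adjusted p = 0.0181), and was 0.55 (SE 0.15, adjusted p = 0.0253) above VDR-null. Its value in VDR-null against control was 0.14 (SE 0.13, adjusted p = 0.551). Without VDRgem 1 the rise over control was 0.54 and missed the threshold (adjusted p = 0.126). The difference between the mutants missed it without VDRgem 1 (0.175) or VDR-null 5 (0.0506).

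Aspn, which encodes asporin, a collagen-binding proteoglycan of the periodontal ligament known to restrain TGF-beta and BMP signals, had the largest log2 fold change of the 9 genes in VDRgem. It is at chr13:49544443-49567565 on the plus strand. Controls held 26.1, 39.2, 47.1, 35.9 and 34.2 CPM, VDRgem 159, 102 and 133 CPM, and VDR-null 40.9, 91.5, 13.7, 59.6 and 30.2 CPM. The VDRgem libraries were all higher than any other library. The VDR-null libraries reached both the lowest and, after VDRgem, the highest values, with a coefficient of variation of 63.3% against 20.9% in controls and 21.5% in VDRgem.

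Aspn rose 3.60-fold over control, on the log2 scale 1.85 (SE 0.40, adjusted p = 0.0178), and was 1.47 (SE 0.40, adjusted p = 0.0237) above VDR-null. In VDR-null the value was 0.37 (SE 0.36, adjusted p = 0.565), and it turned to -0.03 without VDR-null 2, so it has no fixed direction. The rise over control was 1.68 without VDRgem 1 and missed the threshold (adjusted p = 0.0944). The difference between the mutants missed it without VDRgem 1 (0.112), VDR-null 1 (0.0547) or VDR-null 5 (0.0506). Aspn lies inside Cenpp, a centromere protein gene on the opposite strand, with 7 bases of shared exon (0.297% of the exon length of Aspn). Cenpp fell from 3.86 ± 0.549 CPM in the 5 controls (SD) to 2.37 ± 0.145 CPM in the 3 VDRgem libraries (adjusted p = 0.0358), the reverse of Aspn.

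Postn, at chr3:54361109-54391037 on the plus strand, was the highest of the 9 genes in CPM in VDRgem. Controls held 1998, 2048, 2726, 2196 and 2147 CPM, VDRgem 4946, 3526 and 4445 CPM, and VDR-null 3026, 4385, 2613, 2348 and 2245 CPM. The VDRgem libraries lay above all controls, but VDR-null 2 reached into their range. Postn rose 1.94-fold over control, on the log2 scale 0.95 (SE 0.20, adjusted p = 0.0151), and missed the threshold without VDRgem 1 (0.83, adjusted p = 0.0927). Against VDR-null the value was 0.56 (SE 0.20, adjusted p = 0.0632), and without VDR-null 2 it passed, at 0.77 with an adjusted p of 0.00633. In VDR-null against control it was 0.40 (SE 0.17, adjusted p = 0.197).

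Marker scores of other cell types were set beside these 4 genes in VDRgem. VDRgem 3, with the lowest keratinocyte and skeletal muscle scores of the group (2.93 and 0.41, against highest controls of 3.06 and 0.37), held more Aspn and Postn than VDRgem 2 and lay above every control for Scx, Tnmd, Aspn, Postn, Dcn and Bgn. Fitted from VDRgem 3 alone, with its spread assumed to be that of the other groups, the log2 fold changes were 0.81 for Scx, 0.63 for Tnmd, 1.86 for Aspn and 0.99 for Postn, and 0 of the 9 genes were called (adjusted p = 0.283 to 0.376 for these 4). With the keratinocyte score as a covariate the values for Tnmd, Aspn and Postn were 0.65, 1.77 and 0.98 (adjusted p = 0.291, 0.273 and 0.255). With the muscle score the values for Scx, Tnmd, Aspn and Postn were 1.33, 0.75, 2.32 and 1.01 (adjusted p = 0.0764 to 0.0981). Other marker scores also moved with the group. Smooth muscle and pericyte markers averaged 6.34, 6.03 and 6.30 in VDRgem 1 to 3, the order of Tnmd, Aspn and Postn there, and 5.70 to 6.01 in controls, with 2 of 7 called higher. Dermal and loose connective tissue fibroblast markers averaged 5.37, 3.98 and 3.40 in VDRgem 1 to 3 and 2.99 to 3.51 in controls, with 4 of 9 called higher and 2 lower. The dental papilla markers averaged 2.79 to 3.15 in VDRgem and 3.57 to 4.03 in controls, with 3 of 8 called lower. The part of these cells in the values was not tested beyond the 2 covariates.

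**Figure D4:**
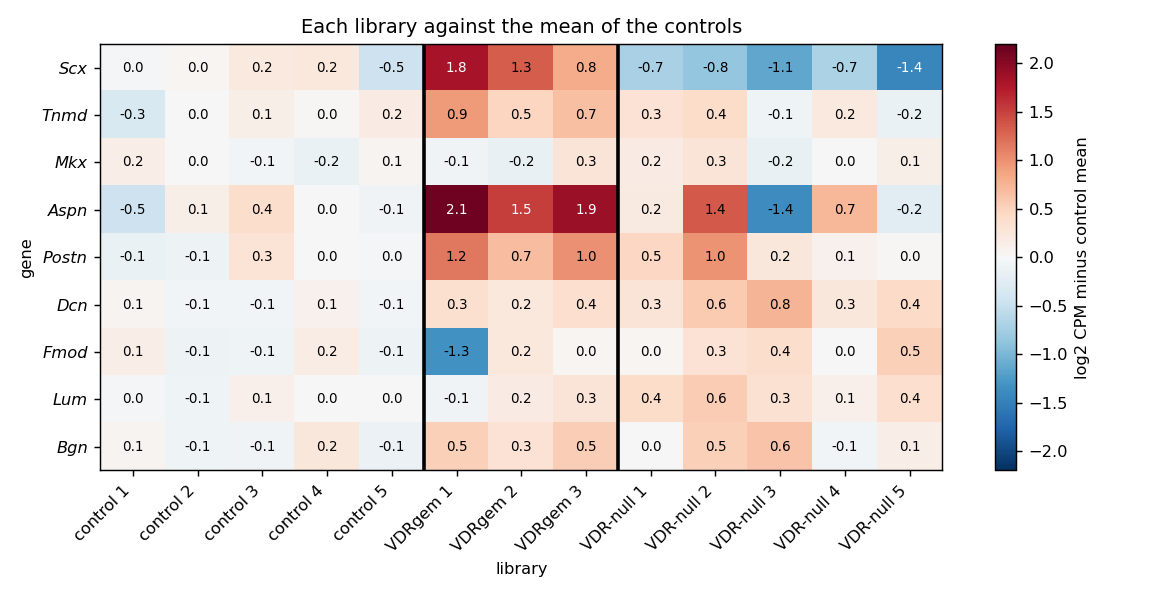
Each gene in each library as log2 CPM minus the mean of the 5 controls, with the value printed in each cell and vertical lines between the groups. Scx, Tnmd, Aspn and Postn are above 0 in all 3 VDRgem libraries, Scx is below 0 in all 5 VDR-null libraries, and Fmod is at -1.3 in VDRgem 1.

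Dcn encodes decorin, which limits the width of collagen fibrils, and was the 1 gene called in VDR-null against control. It is at chr10:97479609-97518143 on the plus strand. Controls held 767, 704, 704, 785 and 706 CPM, VDRgem 933, 864 and 940.4 CPM, and VDR-null 887, 1096, 1235, 873 and 982 CPM. All 8 mutant libraries lay above all 5 controls, and the mutants overlapped with each other. Dcn rose by 0.47 in VDR-null (SE 0.10, adjusted p = 0.0402), a 1.38-fold change. In VDRgem the value was 0.32 (SE 0.11, adjusted p = 0.0964), and between the mutants -0.15 (SE 0.11, adjusted p = 0.352). The call in VDR-null is close to the threshold and passed in 4 of 13 fits that left out 1 library. It missed without VDR-null 1, 2 or 5 (adjusted p = 0.0579, 0.115 and 0.0515), control 1 to 5 (0.100, 0.0872, 0.106, 0.0894 and 0.0556) or VDRgem 2 (0.0693), at log2 fold changes of 0.39 to 0.52 over all 13 fits. The VDRgem value passed without VDR-null 3 (adjusted p = 0.0481) and in DESeq2 (0.0434).

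Bgn encodes biglycan, a close relative of decorin that is abundant in bone and dentin, at chrX:73483602-73495933 on the plus strand. Controls held 2388, 2148, 2152, 2698 and 2080.2 CPM, VDRgem 3266, 2847 and 3323 CPM, and VDR-null 2257, 3271, 3539.8, 2179.7 and 2519 CPM. The VDRgem libraries were above all controls, while VDR-null spread from the control range to beyond VDRgem. The log2 fold change was 0.46 in VDRgem (SE 0.16, adjusted p = 0.0959), 0.26 in VDR-null (SE 0.14, adjusted p = 0.276) and 0.19 between the mutants (SE 0.16, adjusted p = 0.418). In DESeq2 the VDRgem value passed (0.46, adjusted p = 0.0399).

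Lum, which encodes lumican, a proteoglycan that orders collagen in the cornea and tendon, lies 47.0 kb beyond Dcn at chr10:97565128-97572703. Controls held 1019.7, 983, 1130.2, 1051 and 1052 CPM, VDRgem 989, 1182 and 1276 CPM, and VDR-null 1378, 1535, 1317, 1135 and 1356 CPM. All VDR-null libraries were above all controls, the lowest by a narrow margin, and VDRgem overlapped with both. The log2 fold change was 0.36 in VDR-null (SE 0.09, adjusted p = 0.0612), 0.13 in VDRgem (SE 0.11, adjusted p = 0.494) and -0.23 between the mutants (SE 0.11, adjusted p = 0.159). The VDR-null value passed in DESeq2 (adjusted p = 0.00627) and without VDRgem 1 (0.0419) or VDR-null 4 (0.0420), over a range of 0.0419 to 0.145, and with the muscle covariate (0.0273).

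Fmod, which encodes fibromodulin, a partner of lumican in fibril assembly in tendon, is at chr1:134037254-134048277 on the plus strand. Controls held 948, 801, 811, 965 and 796 CPM, VDRgem 343, 1009.8 and 891 CPM, and VDR-null 887, 1072, 1129, 854 and 1235 CPM. VDRgem 1 was below every other library, and the other 12 overlapped across groups. The log2 fold change was -0.21 in VDRgem (SE 0.25, adjusted p = 0.670) and turned to 0.13 without VDRgem 1, so it has no fixed direction. In VDR-null it was 0.26 (SE 0.22, adjusted p = 0.505), and between the mutants -0.47 (SE 0.26, adjusted p = 0.209). The coefficient of variation of Fmod in VDRgem was 47.6%, against 9.80% in controls and 15.6% in VDR-null.

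Small leucine-rich proteoglycan genes lie in clusters, and neighbours of the members did not share one value. On chromosome 13 Aspn lies between Ecm2, 11.7 kb before it, and Omd, 14.9 kb after it, with Ogn a further 15.2 kb on. Beside the 1.85 of Aspn in VDRgem against control, Ecm2 was at 0.40 (adjusted p = 0.157), Omd at 0.29 (adjusted p = 0.120) and Ogn at 0.49 (adjusted p = 0.278), none called. On chromosome 10 Dcn and Lum are followed by Kera and Epyc. Kera, which encodes keratocan of the cornea, was at 0.51 in VDRgem (adjusted p = 0.264) and 0.84 in VDR-null (adjusted p = 0.0717), at 0.521 to 1.86 CPM over all libraries. Epyc, which encodes epiphycan of cartilage, was read at 0.443 to 0.900 CPM in controls and at 0.0192, 0.132 and 0.0488 CPM in VDRgem. It fell by 3.24 log2 units (SE 0.72, adjusted p = 0.0188), on 1, 6 and 4 counts in the VDRgem libraries. VDR-null spread from 0.108 to 0.888 CPM of Epyc, with VDR-null 2 and 3 below every control. Of 13 other genes of the family 2 rose, Podn and Podnl1, and 1 fell, Epyc, in VDRgem against control, with a median of 0.29, where 8.62% of all genes were called. Podnl1 held 70.1, 52.9 and 72.6 CPM in VDRgem, against 34.8 to 48.8 CPM in controls (0.64, SE 0.19, adjusted p = 0.0478). Podn held 12.1, 3.37 and 2.47 CPM in VDRgem, the order of the keratinocyte, skeletal muscle and fibroblast scores, against 1.09 to 2.28 CPM in controls (1.75, SE 0.43, adjusted p = 0.0265). In VDR-null 0 of 13 were called by edgeR, with a median of -0.08 and the smallest p in Omd (0.37, adjusted p = 0.0612). There 5 had an unadjusted p under 0.05, against 22.8% of all genes, DESeq2 called 2 higher and 1 lower, and edgeR called 1 higher without VDR-null 3. With the muscle covariate, under which 1915 of 17837 genes were called in VDR-null against control, edgeR called 2 of the 13 higher and 2 lower. Without VDRgem 1 none of the 3 VDRgem calls passed, in a fit that called 66 of 18137 genes over control. Neither rise passed without control 1, 2 or 5, and 1 passed without control 3 or 4, VDRgem 3 or VDR-null 4 or 5.

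Other genes of tendon and ligament cells rose in 8 of 20 in VDRgem against control and fell in none, with a median of 0.77, beside 0.00 for all genes. This list too was chosen with earlier results of these data known, and among all genes 4.80% were called higher. The 8 were Egr1, Eya1, Thbs4, Cilp, Tppp3, Col12a1, Col14a1 and Itga11. Thbs4, which encodes a thrombospondin of tendon, held 315, 221 and 242 CPM in VDRgem, against 77.4 to 144 CPM in controls and 96.7 to 186 CPM in VDR-null (1.34 over control, SE 0.22, adjusted p = 0.00866). Egr1, an immediate early transcription factor that also acts in tendon, rose by 2.48 (SE 0.43, adjusted p = 0.00982). Egr1 held 182 and 218 CPM in VDRgem 1 and 2, the libraries with the highest keratinocyte scores, but 39.9 CPM in VDRgem 3. The highest control held 36.3 CPM of Egr1, and VDRgem 3 lay within the VDR-null range of 15.2 to 45.4 CPM. Cilp, which encodes a matrix protein of cartilage and tendon, rose by 3.07 (SE 0.59, adjusted p = 0.0118). Cilp held 15.9, 3.68 and 1.90 CPM in VDRgem 1 to 3, against 0.484 to 1.14 CPM in controls. That is the order of the keratinocyte, skeletal muscle and fibroblast scores. Tppp3, a marker of the tendon sheath, held 164, 32.8 and 13.9 CPM in VDRgem, the order of the same scores. It reached into the control range of 7.10 to 14.1 CPM (2.85, SE 0.57, adjusted p = 0.0130). Of the 20, 10 were higher and 1, Tgif1, lower in VDRgem against VDR-null, with a median of 0.46, against 18.8% of all genes called, and 0 were called by edgeR in VDR-null against control, with a median of 0.21. In that comparison 5 had an unadjusted p under 0.05, close to the 22.8% of all genes that did. DESeq2 and edgeR with the muscle covariate each called 1 higher and 1 lower there. As a mean log2 CPM the 20 genes were at 5.55, 5.02 and 4.69 in VDRgem 1 to 3, the order of the keratinocyte and fibroblast scores, and 4.15 to 4.31 in controls. Without VDRgem 1, 0 of 20 were called over control in edgeR, with a median of 0.47 and 9 at an unadjusted p under 0.05. Of all 18137 genes in that fit 66 were called over control, with 2812 at an unadjusted p under 0.05. Over control 4 or 5 of the 20 were called without any 1 control or without VDRgem 2. Against VDR-null 2 were called without VDRgem 1, where 434 of 18137 genes were called. Without VDR-null 1 there were 6, where 2045 of 17664 genes were called.

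The counts that follow stand beside 8.62%, 1.33% and 18.8% of all genes called in VDRgem, in VDR-null and between the mutants, and 23.9%, 22.8% and 34.8% at an unadjusted p under 0.05. A list of fibrillar collagens, type VI collagen chains and collagen-processing enzymes rose in 7 of 20, with a median of 0.40. Among them Col5a3, a minor chain that starts fibrils, rose by 1.06 (SE 0.18, adjusted p = 0.00982) and Loxl1, a cross-linking enzyme, by 0.75 (SE 0.16, adjusted p = 0.0175), and Col3a1, Col5a1, Col6a1, Col6a2 and Adamts2 were the others. Col6a1 and Col6a2 encode chains of type VI collagen, which forms beaded filaments and not fibrils. In VDR-null 0 of these 20 were called by edgeR, with a median of 0.01, 1 at an unadjusted p under 0.05 and 1 called lower by DESeq2, and by edgeR without VDRgem 1, from the 2 groups alone or with the muscle covariate. Between the mutants 8 were higher and 1, Plod2, lower in VDRgem. A list of matricellular proteins, the class of Postn, that also holds the matrix proteins Fn1, Mfap4 and Mfap5 rose in 4 of 14, with a median of 0.37. The 4 were Thbs3 at 0.74 (SE 0.13, adjusted p = 0.00982), Ccn3 at 2.69 (SE 0.57, adjusted p = 0.0168), Mfap5 at 2.68 (SE 0.57, adjusted p = 0.0170) and Spon2. Ccn3 held 44.7, 8.21 and 3.96 CPM in VDRgem 1 to 3, against 2.33 to 3.54 CPM in controls. Mfap5 held 34.7, 7.97 and 4.61 CPM, against 1.74 to 3.20 CPM in controls, and both ran in the order of the keratinocyte and fibroblast scores. The median of the list was 0.19 in VDR-null, with 0 called by edgeR and by DESeq2 and 2 at an unadjusted p under 0.05, and 4 of 14 were higher between the mutants. TGF-beta and GDF signals, which act upstream of Scx in tendon, rose in 2 of 17, with a median of 0.14, among them Ltbp4, which stores latent TGF-beta, at 0.74 (SE 0.17, adjusted p = 0.0220). The median of this list was 0.01 in VDR-null, with 0 called by edgeR, 4 at an unadjusted p under 0.05, 2 higher and 1 lower in DESeq2 and 1 each way in edgeR with the muscle covariate, and 3 of 17 were higher in VDRgem than in VDR-null, Tgfb1 among them at 0.52 (SE 0.15, adjusted p = 0.0283). Enzymes that build the glycosaminoglycan chains of proteoglycans had medians of 0.09 and 0.08 in VDRgem and VDR-null, and 0 of 21 were called by edgeR in either. At an unadjusted p under 0.05 there were 4 and 9, and DESeq2 called 1 higher and 1 lower in each. With the muscle covariate edgeR called 2 higher and 3 lower in VDR-null. In VDRgem edgeR called 1 higher without the low-count filter or from the 2 groups alone, and 1 lower with library totals. Between the mutants 4 of 21, Xylt2, B3gat3, Chpf and Chst12, were higher in VDRgem and 1, Ust, lower, with a median of -0.08, which is near the share of all genes called. In the edgeR fit without VDRgem 1, 0 collagen, 0 matricellular and 0 TGF-beta genes were called over control, with 10, 7 and 4 at an unadjusted p under 0.05. Of all 18137 genes that fit called 66 over control, with 2812 at an unadjusted p under 0.05. Against VDR-null that fit called 4, 1 and 1, and 0 glycosaminoglycan enzymes, with 6 at an unadjusted p under 0.05. Of all 18137 genes it called 434 there, with 3991 at an unadjusted p under 0.05. Collagen calls over control numbered 4 without control 1 or 2 and 3 without control 5, and TGF-beta calls 1 without control 4 and 0 without control 5. Against VDR-null the matricellular calls numbered 2 without VDR-null 1 or 5, the TGF-beta calls 5 without VDR-null 3, and the enzymes called higher 2 without VDRgem 2.

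**Figure D5:**
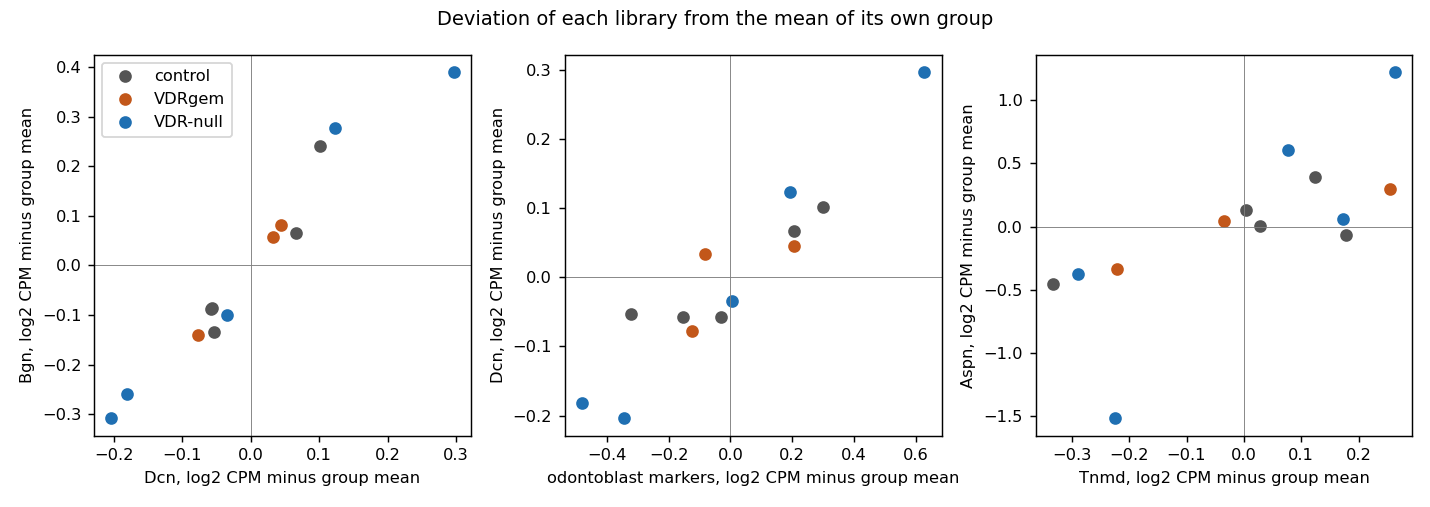
Each point is 1 of 13 libraries, as log2 CPM minus the mean of its own group, for Dcn and Bgn (left), the mean of 6 odontoblast markers and Dcn (middle) and Tnmd and Aspn (right). Dcn and Bgn lie close to 1 line, from VDR-null 4 at the lower left to VDR-null 3 at the upper right.

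Within the groups a few pairs of the genes varied together and most did not. Each gene's log2 CPM was set against the mean of its own group, so that the differences between groups do not enter, and compared over the 13 libraries. The values below are descriptions, and the points share their tooth, depth and scaling factor. Among 36 pairs of the 9 genes the median Pearson r was 0.17, with 5 pairs over 0.5 and 2 under -0.5. Dcn and Bgn were the closest pair, with r = 0.97 (Spearman rho 0.95) and r = 0.97 without VDR-null 3 and 4, the 2 libraries farthest from the median in Dcn. Tnmd and Aspn followed at 0.74 (rho 0.77), with 0.76 without control 1 and VDR-null 5, and Tnmd and Postn at 0.72 (rho 0.76), with 0.68 without the same 2. Aspn and Postn were at 0.61 (rho 0.63) and 0.46 without VDR-null 2 and 3. Fmod and Lum, at 0.62 (rho 0.51), dropped to 0.49 without VDRgem 1 and 2. Fmod ran against Tnmd (r = -0.65, rho -0.68) and Scx (r = -0.61, rho -0.66). These were -0.68 without control 1 and VDR-null 5, and -0.51 without VDRgem 3 and VDR-null 5. Those libraries were the farthest in Tnmd and in Scx, so VDRgem 1, where Fmod deviated most from its group mean (-0.98), stayed in both. Scx and Tnmd were at 0.48 (rho 0.58), and at 0.37 without VDRgem 3 and VDR-null 5.

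Dcn and Bgn also varied with the 6 odontoblast markers, at r = 0.94 (rho 0.88) and 0.92 (rho 0.88), and 0.90 and 0.89 without the 2 farthest libraries. They varied nearly as closely with the 8 osteoblast markers, at 0.90 and 0.87, and with the collagen list, at 0.81 each. The odontoblast markers share Dmp1 and Bglap with the osteoblast markers and Col1a1 with the collagen list, so these likenesses are not separate. Dcn and Bgn ran against the 9 markers of dividing cells at -0.71 and -0.75. The odontoblast markers averaged 11.54 to 11.87 in VDRgem and 11.15 to 11.77 in controls, with a wider 10.98 to 12.09 in VDR-null. Of these 6 markers 0 were called by edgeR in any of the 3 comparisons. At an unadjusted p under 0.05 there were 0, 0 and 1 in VDRgem, in VDR-null and between the mutants, and DESeq2 called the same numbers. In VDR-null 1 and 4, whose averages of 10.98 and 11.12 were below every control, Dcn was at 887 and 873 CPM and the highest control at 785 CPM. The part of odontoblasts or osteoblasts in the Dcn values was not tested. Tnmd and Aspn varied instead with the 7 smooth muscle and pericyte markers, both at 0.78 (rho 0.76 and 0.75), and 0.71 and 0.72 without the 2 farthest libraries. Postn was at 0.67 with them (rho 0.54) and 0.47 without control 3 and VDR-null 2. With the 7 ameloblast markers Tnmd, Aspn and Postn were at 0.65, 0.52 and 0.61 (rho 0.75, 0.60 and 0.59). These were 0.48, 0.49 and 0.25 without the 2 farthest libraries of each. Scx was closest to the keratinocyte markers, at 0.65 (rho 0.55), which dropped to 0.50 without VDRgem 3 and VDR-null 5, and Tnmd, Aspn and Postn stood at 0.04, 0.01 and -0.04 with them. Aspn ran against the 8 dental papilla markers at -0.84 (rho -0.58), but at -0.34 without VDR-null 2 and 3. Tnmd and Postn were at -0.59 and -0.67 with these markers (rho -0.44 and -0.35). Without the 2 farthest libraries of each the values were -0.60 and -0.15.

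Over all genes tested with a mean of at least 1 CPM, the 3 most like Dcn in this measure were Bgn at 0.97, Dync1i1 at 0.97 and Sparc, which encodes osteonectin, at 0.97. For Tnmd they were Scamp1 at 0.94, Frmpd1 at 0.93 and Rbm47 at 0.90, for Aspn Cacng5 at 0.93, Hpse2 at 0.92 and Gria1 at 0.91, and for Scx Emc6 at 0.91, Cdhr1 at 0.91 and Abracl at 0.87. None of the 3 genes most like Scx, Tnmd or Aspn was among the 9 genes.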

How the data were processed

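Per the labels' protocols, 300 ng of total RNA entered each stranded poly-A library, amplified by 12 cycles of PCR. The authors deposited whole-number counts per gene without scaling, made with bcl2fastq 2.20.0.422, STAR 2.5.3a and HTSeq 0.6.1p1 on mm10, according to the submitters' processing notes. Strand setting, counting mode and annotation release were not given in the sources used here. Of 34709 genes, 1143 had no count. Replicates are numbered in accession order, and no library copied another (smallest chi-square per degree of freedom 15.2 within groups).

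Symbols, positions and exon lengths came from GENCODE M21 on GRCm38 (mm10), with a symbol for 34618 genes. Promoter windows came from RefSeq on GRCm38.p6. The test was edgeR 4.0.16 (R 4.3.3): TMM scaling, filterByExpr with a minimum count of 10, 1 fit of all 13 libraries with a mean per group, and quasi-likelihood p-values adjusted by Benjamini-Hochberg over 17837 genes. Called means an adjusted p under 0.05. CPM use the TMM scaling, and log2 CPM a prior count of 2. The test was tried on simulated counts.

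The 9 genes and the lists were chosen with earlier results of these data known. All 9 genes are named, with up to 3 genes of each list by smallest p and, for Scx, Tnmd, Aspn and Dcn, the 3 tested genes of highest Pearson r. List genes beyond these, such as neighbours in a cluster, were named after their values were seen. A result for 1 list gene is not reported here. Alternatives were DESeq2 1.42.0, limma-voom (limma 3.58.1), other scaling, other filters, robust dispersion, marker scores as covariates, only the groups compared and fits without 1 library or without VDRgem 1 and 2. Plots used matplotlib 3.10.9 (Python 3.11.15).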

Additional observations from a re-analysis of the deposited data

Results flagged for a closer look

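Postn in control 3, at 2725.5 CPM, lay far from the other controls, which held 1998 to 2196 CPM. Its gap to the nearest was 0.728 of the range of the 5 libraries. Among 18 groups of 5 libraries examined this was the 1 such case, and chance gives about 1 in 20.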

How the results depend on the processing

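Calls of the 9 genes numbered 4, 1 and 3 in VDRgem against control, VDR-null against control and VDRgem against VDR-null. Leaving out 1 library gave 0 to 5, 0 to 3 and 1 to 4. The keratinocyte covariate gave 0, 0 and 0, the muscle covariate 0, 3 and 3, only the compared groups 6, 2 and 1, and leaving out VDRgem 1 and 2 gave 0, 3 and 1. For VDR-null against control DESeq2 gave 3, and library totals, a mean of at least 1 CPM and robust dispersion 2 each. Over all genes 1537, 238 and 3346 were called, and leaving out 1 library gave 66 to 2021, 6 to 685 and 434 to 4610. DESeq2 gave 2350 and 1559 against control and limma-voom 981 in VDRgem. The keratinocyte covariate gave 0, 56 and 13, the muscle covariate 15, 1915 and 2102, leaving out VDRgem 1 and 2 gave 5, 676 and 32. In VDR-null against control 423 were called at a mean of at least 1 CPM and 703 from only the 2 groups, which gave 753 between the mutants. Library totals alone called 589 higher and 1576 lower in VDRgem, 91 and 256 in VDR-null, and 1310 and 3616 between the mutants, in place of 856 and 681, 121 and 117, and 1887 and 1459. Mkx turned sign in VDRgem against control with library totals (-0.14) and between -0.12 and 0.12 with 1 library left out. Between the mutants it did so with the keratinocyte (0.30) and muscle (0.0098) covariates, without VDRgem 1 and 2 (0.18) and between -0.20 and 0.037 with 1 left out. Lum turned with library totals in VDRgem (-0.031) and with the keratinocyte covariate between the mutants (0.040). Fmod in VDRgem turned with that covariate (0.12), without VDRgem 1 and 2 (0.032) and between -0.49 and 0.13 with 1 left out, and Aspn in VDR-null ran from -0.026 to 0.61. Over single genes, the 8 called values stayed called in 153 alternatives and missed in 39, and none turned. The 19 values not called stayed so in 417, passed in 25 and turned in 14. The cause of these changes was not tested beyond what each alternative changes. No paired analysis was possible because the labels number no replicates. Scx, at 15 to 259 counts, is the gene most limited by depth.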
